A study of Mus musculus with 8 samples.

Results

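Within 3 of the 4 groups of a mouse small-intestine array study, 1 array carried a high signal of gastrokine 2 (Gkn2), a secreted protein of the stomach's surface mucous cells, and the other array did not. The arrays were chosen by that signal: in each of these groups the array with the higher log2 Gkn2 signal was set against the other array of the same group. This gave 3 higher-Gkn2 arrays and 3 other arrays, 6 of the 8 arrays in all, and the 2 arrays of the remaining group were left outside the split. All mice were female BALB/cA Jcl animals aged 8 weeks, and tissue of irradiated mice was taken 4 h after carbon-ion irradiation. The 0 Gy arrays, from mice that were not irradiated, carry the 4 h label as well. The higher-Gkn2 arrays were FGF1 with 8 Gy replicate 1, saline with 8 Gy replicate 2 and saline with 0 Gy replicate 1. The other arrays were FGF1 with 8 Gy replicate 2, saline with 8 Gy replicate 1 and saline with 0 Gy replicate 2. Both arrays outside the split came from mice given FGF1/CPP-C, which the labels name as an agent of its own beside FGF1 (fibroblast growth factor 1), and 8 Gy. All agents were injected intraperitoneally, and the design text gives a pretreatment of 12 h for FGF1/CPP-C. The labels call the tissue small intestine and the design text calls it jejunum. They do not state which stretch was cut for each array, or whether both arrays of a group are separate animals, so p-values measure the spread between arrays, which may be technical.

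The antrum is the last stretch of the stomach before the pylorus. Its surface and pits are lined by mucous cells that secrete gastrokines, trefoil peptides and the mucin Muc5ac, its glands hold mucous cells of another kind and the G cells that release the hormone gastrin, and it joins the duodenum, whose Brunner glands secrete mucus below the villi. The exocrine pancreas lies in the loop of the duodenum, and its acinar cells make the digestive proenzymes. None of these cells belongs to jejunal mucosa.

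The promoters of 2 antrum genes and 2 acinar genes are shown as examples, and shared regulation was not tested. No promoter entry was available for Tff1, Muc5ac, Psca and Tff2. Each sequence is the 250 bases before the annotated start in RefSeq (GRCm38.p6), written 5′ to 3′ on the gene's strand, and all 4 genes lie on the plus strand. Capitals mark the TATA box TATAAA, then CACCTG, an E-box form that basic helix-loop-helix factors bind, and last AGATAA, a site form of GATA factors. Both strands were searched, and a match on the minus strand is printed in capitals as its reverse complement.
Gkn2, chr6:87373115-87373364: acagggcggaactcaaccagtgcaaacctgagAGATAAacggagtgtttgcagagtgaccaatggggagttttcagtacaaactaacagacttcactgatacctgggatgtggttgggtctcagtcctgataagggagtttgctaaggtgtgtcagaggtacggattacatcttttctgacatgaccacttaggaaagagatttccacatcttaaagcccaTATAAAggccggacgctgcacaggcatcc
Gast, chr11:100334157-100334406: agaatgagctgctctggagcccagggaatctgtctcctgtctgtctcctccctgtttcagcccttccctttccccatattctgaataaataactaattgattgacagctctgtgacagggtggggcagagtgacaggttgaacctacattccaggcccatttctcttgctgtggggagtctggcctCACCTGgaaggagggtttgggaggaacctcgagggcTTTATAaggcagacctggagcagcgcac
Pnlip, chr19:58670115-58670364: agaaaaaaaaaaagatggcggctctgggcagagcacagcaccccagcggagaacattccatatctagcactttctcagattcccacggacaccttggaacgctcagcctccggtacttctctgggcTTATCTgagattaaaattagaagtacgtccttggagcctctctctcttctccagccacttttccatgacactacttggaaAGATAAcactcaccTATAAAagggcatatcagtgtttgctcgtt
Try4, chr6:41302022-41302271: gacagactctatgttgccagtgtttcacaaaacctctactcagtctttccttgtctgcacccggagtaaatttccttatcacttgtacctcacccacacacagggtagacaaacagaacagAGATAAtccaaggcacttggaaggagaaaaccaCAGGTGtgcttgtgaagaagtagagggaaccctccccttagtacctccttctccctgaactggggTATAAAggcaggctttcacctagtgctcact
The TATA match began 29 bases before the start in Gkn2, 30 in Pnlip and 31 in Try4, all on the plus strand. In Gast the exact match was on the minus strand, from 28 bases before the start. The same stretch reads TATAAG on the plus strand, a form that was not searched. The strand of the exact match therefore does not show which way a TATA box faces there. Among the 55 genes at least 4-fold higher in the higher-Gkn2 array of all 3 pairs, described below, 38 matched the promoter table. Of their 43 promoters 16.3% held TATAAA, 18.6% CACCTG and 18.6% AGATAA. Among the 20 acinar genes high in both saline pairs, also described below, 19 matched, and 36.8% of their 19 promoters held TATAAA, 52.6% CACCTG and 36.8% AGATAA. Of all 32851 promoters in the table, 12.4% held TATAAA, 17.2% CACCTG and 9.99% AGATAA. Of the 17094 promoters of measured genes, from which both sets came, 8.82% held TATAAA, 16.9% CACCTG and 7.37% AGATAA. A match is a description of letters in this window and shows no binding.

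Levels are log2 signals relative to each array's 75th percentile, so a level of 0 is as bright as that percentile. A floor of -6.74 was set for dim or negative signals. The 75th percentile was 1735 to 2165 intensity units over the 8 arrays, and 66.9% to 71.1% of probes were well above background. Enterocyte genes, which mark the labelled tissue, had a median level between 5.04 and 5.76 on all 8 arrays. The higher-Gkn2 arrays did not share a slide: 2 lay on slide 1 and 1 on slide 2. Since the choice used Gkn2 itself, all differences between the higher-Gkn2 array and the other array are descriptions and none was tested.

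The 4 antrum markers stood apart in all 3 pairs. Gkn2, whose probe lies at chr6:87329285-87329344 on the plus strand of mm9, had levels of 6.47 (FGF1), 7.55 (8 Gy saline) and 6.58 (0 Gy saline) in the higher-Gkn2 arrays, against -6.06, -5.13 and -5.30 in the other arrays of the same groups in that order. The FGF1/CPP-C arrays lay with the other arrays, at -5.68 and -6.57. The split was therefore between a bright and a dim signal, 5930-fold in the FGF1 pair, 6560-fold in the 8 Gy saline pair and 3780-fold in the 0 Gy saline pair (mean log2 difference 12.37 ± 0.42, SD, n = 3 pairs). Tff1, the trefoil peptide of surface mucous cells, had levels of 7.86, 8.17 and 7.92 in the higher-Gkn2 arrays, against -0.44, -0.71 and 0.84 in the other arrays. It sat at the floor on both FGF1/CPP-C arrays and was saturated on 1 array, and its 2 probes gave pair differences of 7.08 to 9.08. Muc5ac, the secreted mucin of the gastric pit, had levels of 2.24, 4.47 and 2.35 in the higher-Gkn2 arrays, against -4.54, -3.77 and -3.99 in the other arrays. Gast, which encodes the hormone gastrin, had levels of 0.02, 1.95 and 0.77, against -4.75, -4.30 and -3.98. The mm9 probe positions are chr17:31298346-31298405 for Tff1, chr7:149004793-149004852 for Muc5ac and chr11:100197806-100197865 for Gast. All 3 higher-Gkn2 arrays lay above all 5 remaining arrays for each marker. The mean log2 difference was 8.09 ± 0.92 for Tff1, 7.12 ± 1.00 for Muc5ac and 5.25 ± 0.86 for Gast (SD, n = 3 pairs).

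In bulk tissue, fewer cells of a type and less RNA per cell cannot be told apart, which applies to every value here. Of 26 genes in the antrum list, 22 were measured, Sox2 and Barx1 were too dim to keep, and Muc6 and Dpcr1 had no probe under those names. RefSeq gives Dpcr1 as a synonym of Mucl3, which was measured and is described with the genes outside the lists. The median log2 difference over the 22 was 2.30 in the FGF1 pair, 3.46 in the 8 Gy saline pair and 1.73 in the 0 Gy saline pair, and it was 0.19 for FGF1/CPP-C replicate 1 minus replicate 2. Over all genes these medians were 0.02, -0.12, 0 and 0.03. In all 3 pairs 9 of the 22 were at least 4-fold higher in the higher-Gkn2 array, a limit that 55 of all 22342 genes with a value in each pair passed (0.246%). No gene was at least 4-fold lower in all 3 (0%). The arrays were chosen for an antrum gene, so these counts are descriptions.

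The antrum genes fell into tiers by their level outside the higher-Gkn2 arrays. The first tier was dim in the other arrays and in the FGF1/CPP-C arrays. Besides Gkn2, Muc5ac and Gast it held Psca, a surface antigen, with levels of -0.32, 1.14 and -0.74 in the higher-Gkn2 arrays, against -6.35, -5.09 and -6.65 in the other arrays. It also held gastrokine 1, Gkn1, at -2.83, -0.93 and -2.20, against -5.18, -5.25 and -4.84. Cldn18, a tight-junction claudin of gastric epithelium, had levels of -3.79, -2.29 and -3.88 and was at the floor on all 5 remaining arrays.

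**Figure D1:**
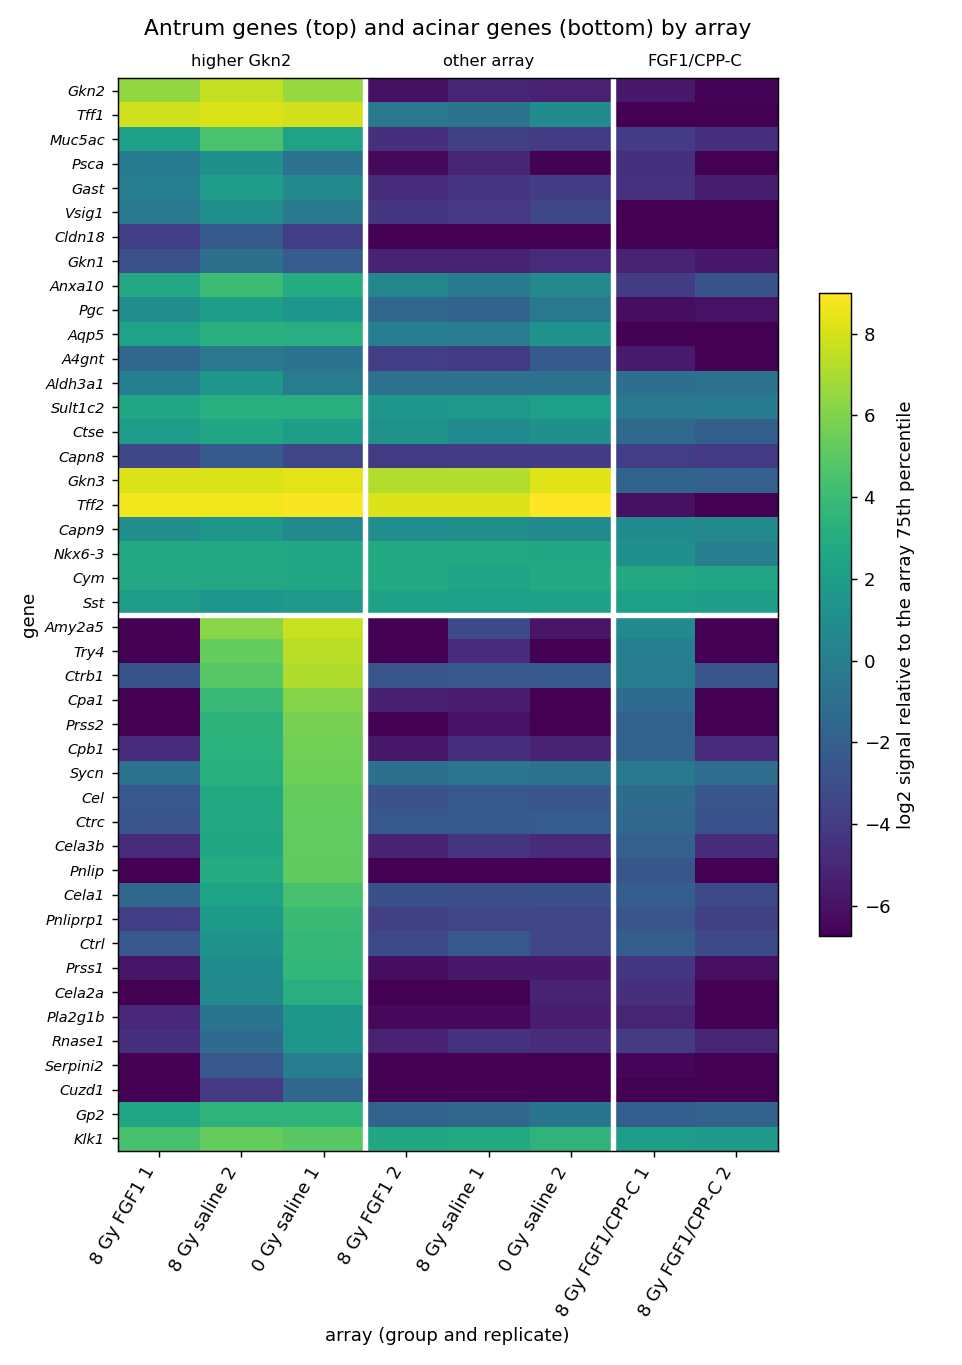
Heat map of the log2 signal relative to the array's 75th percentile for 22 antrum genes (above the white line) and 22 acinar genes (below it), with arrays as columns in 3 blocks: higher-Gkn2 arrays, other arrays of the same groups, and FGF1/CPP-C arrays. Gkn2 and Muc5ac are bright in the left block alone, Tff2 and Gkn3 are bright in the left and middle blocks and dim in the right block, and most acinar enzymes are bright in 2 arrays of the left block.

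The second tier was lower in the other arrays than in the higher-Gkn2 arrays, and lower again or absent in the FGF1/CPP-C arrays. Tff1, described above, had this order. Vsig1 had it too, with levels of -0.35, 1.11 and -0.37, against -4.17, -4.12 and -3.39, and the floor value in both FGF1/CPP-C arrays. Aqp5, a water channel of secretory glands, had levels of 2.41, 3.24 and 3.22 in the higher-Gkn2 arrays, 0.06, -0.14 and 1.26 in the other arrays, and the floor value in both FGF1/CPP-C arrays. Pgc, the proenzyme of the pepsin gastricsin, had levels of 1.00, 2.06 and 1.50, against -1.57, -1.70 and -0.41 in the other arrays and -6.13 and -5.98 in the FGF1/CPP-C arrays. Anxa10, an annexin, had levels of 2.79, 4.04 and 3.02, against 0.50, -0.21 and 0.67, and -3.98 and -2.65 in the FGF1/CPP-C arrays. A4gnt, which caps gland mucin glycans, had levels of -1.48, -0.51 and -0.75, against -3.79, -4.06 and -2.31. It was thus dim in the other arrays, and its higher level in the FGF1/CPP-C arrays was -5.63. Ctse (cathepsin E) and Sult1c2 (a sulfotransferase) had the same order of array blocks, with pair differences between 0.68 and 1.92.

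The third tier was bright in the other arrays as well, within 0.97 on the log2 scale of the higher-Gkn2 arrays. Tff2, the trefoil peptide of gland mucous cells and Brunner glands, had levels of 8.64, 8.64 and 8.85 in the higher-Gkn2 arrays, against 8.15, 8.16 and 8.99 in the other arrays. Its levels in the FGF1/CPP-C arrays were -6.02 and -6.74, neither well above background. Gkn3, a gastrokine of gland mucous cells, had levels of 8.17, 8.12 and 8.37, against 7.20, 7.18 and 8.23, and -1.66 and -1.82 in the FGF1/CPP-C arrays. Tff2 was saturated on 4 arrays and Gkn3 on 3, so differences between their bright arrays are compressed. Nkx6-3, a homeobox factor of antral glands, was level across the pairs (2.68 to 2.90) and lower in the FGF1/CPP-C arrays (1.16 and -0.02). The lowest of the other arrays exceeded the highest FGF1/CPP-C array at least 4-fold in 8 of the 22 antrum genes, against 6 of the 55 genes past the 4-fold limit (10.9%) and 22 of all 22368 genes (0.0984%).

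Some antrum-list members did not follow the split. Sst, somatostatin, which D cells of both stomach and intestine make, had levels of 1.92, 1.50 and 1.77 in the higher-Gkn2 arrays, against 2.28, 2.18 and 2.26. Cym, chymosin, ranged from 2.44 to 2.87 over all 6 arrays of the pairs. Capn9 differed by 0.03 to 0.58, while its relative Capn8 differed by 0.57 to 1.70.

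Of 16 corpus genes, 11 were measured, with median differences of 0.22, 0.07 and 0.31 in the FGF1, 8 Gy saline and 0 Gy saline pairs, and 4 of the 11 were higher in all 3, as were 17.5% of all genes. Atp4a and Atp4b, the subunits of the parietal cell proton pump, Chia1 and Slc26a7 were too dim to keep. Cblif, gastric intrinsic factor, had levels of -1.16, 0.52 and -0.17 in the higher-Gkn2 arrays, against -5.82, -5.92 and -4.89 in the other arrays. Clic6, an intracellular chloride channel protein, had levels of 0.81, 1.32 and 1.19, against -0.35, -0.30 and 0.48. Kcne2, a potassium channel subunit of parietal cells, was dim, with levels of -6.19, -4.99 and -5.29, against the floor value in the FGF1 and 8 Gy pairs and -6.71 in the 0 Gy pair. All 3 genes were higher in every higher-Gkn2 array than in every other array, while Esrrg (-0.40, -0.95 and -0.45) and Dnase1 (-0.02, -0.91 and -0.45) were lower in all 3 pairs. Pair medians of 11 measured genes of squamous forestomach were 0.12, -0.12 and 0.26, and none of them was 2-fold higher in all 3 pairs.

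Brunner gland genes overlap with the antrum list, and their pair medians over 9 measured members were 0.49, -0.02 and 0.21. Aqp5, Agr2 and Egf were at least 2-fold higher in the higher-Gkn2 array of all 3 pairs, as were 268 of all 22342 genes (1.2%), and no member was 4-fold higher in all 3. Agr2, a disulfide isomerase of mucous cells, had levels of 6.30, 7.05 and 6.88, against 4.83, 4.81 and 5.76 in the other arrays and 4.02 and 3.81 in the FGF1/CPP-C arrays. Its levels were highest in the higher-Gkn2 arrays of all 3 groups. Egf, epidermal growth factor, had levels of -4.27, -3.90 and -3.98, against -5.52, -5.32 and -5.31. Agr3, a relative of Agr2, and Pdx1, a duodenal and pancreatic transcription factor, were lower in all 3 pairs, Agr3 by -0.15, -0.55 and -0.49 and Pdx1 by -0.19, -0.31 and -0.04. Spdef, a regulator of secretory cells from the goblet list, had levels of 3.64, 4.42 and 4.64, against 2.47, 2.11 and 3.15.

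Pancreatic acinar transcripts followed the split in both saline pairs and not in the FGF1 pair. Of 36 acinar genes, 32 were measured, and their median difference was 0.02 in the FGF1 pair, 5.09 in the 8 Gy saline pair and 7.13 in the 0 Gy saline pair. In these pairs 2, 23 and 26 members were at least 4-fold higher, against 0.543%, 1.27% and 0.607% of all genes, while 0.0757%, 0.147% and 0.0624% of all genes were at least 4-fold lower. Try4, a trypsinogen with close paralogs that its probe may not separate, had levels of -6.74, 5.25 and 7.34 in the higher-Gkn2 arrays, against -6.74, -4.75 and -6.74. Pnlip, pancreatic lipase, had levels of -6.74, 2.93 and 5.14, with the floor value in all 3 other arrays. Cpa1, carboxypeptidase A1, had levels of -6.74, 3.88 and 6.14, against -5.36, -5.57 and -6.74. Amy2a5, an amylase, had levels of -6.74, 6.19 and 7.70, against -6.74, -3.21 and -5.94. The FGF1 array with antrum transcripts was thus at the floor for 4 major enzymes.

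The pancreatic signal had its own order of arrays. In 20 acinar members that were at least 4-fold higher in both saline pairs and not in the FGF1 pair, the level in 8 Gy saline replicate 2 was below that in 0 Gy saline replicate 1 throughout. Pla2g1b is among the 20 by its brightest probe, with differences of 5.71 (8 Gy saline pair) and 7.08 (0 Gy saline pair). Its second probe, at 0.57 and 1.95, was below the limit in both. Over the 20, the 0 Gy array exceeded the 8 Gy array by a median of 2.32 on the log2 scale, with a range of 1.51 to 2.77 and an SD of 0.27 over genes. The 9 antrum members past the limit ran the opposite way: 8 Gy saline replicate 2 exceeded 0 Gy saline replicate 1 by a median of 1.26 (0.25 to 2.12). FGF1 replicate 1 minus 0 Gy saline replicate 1 was -0.11 for those 9 (-0.75 to 0.41). The array brightest in antrum transcripts was therefore not the one brightest in acinar transcripts.

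**Figure D2:**
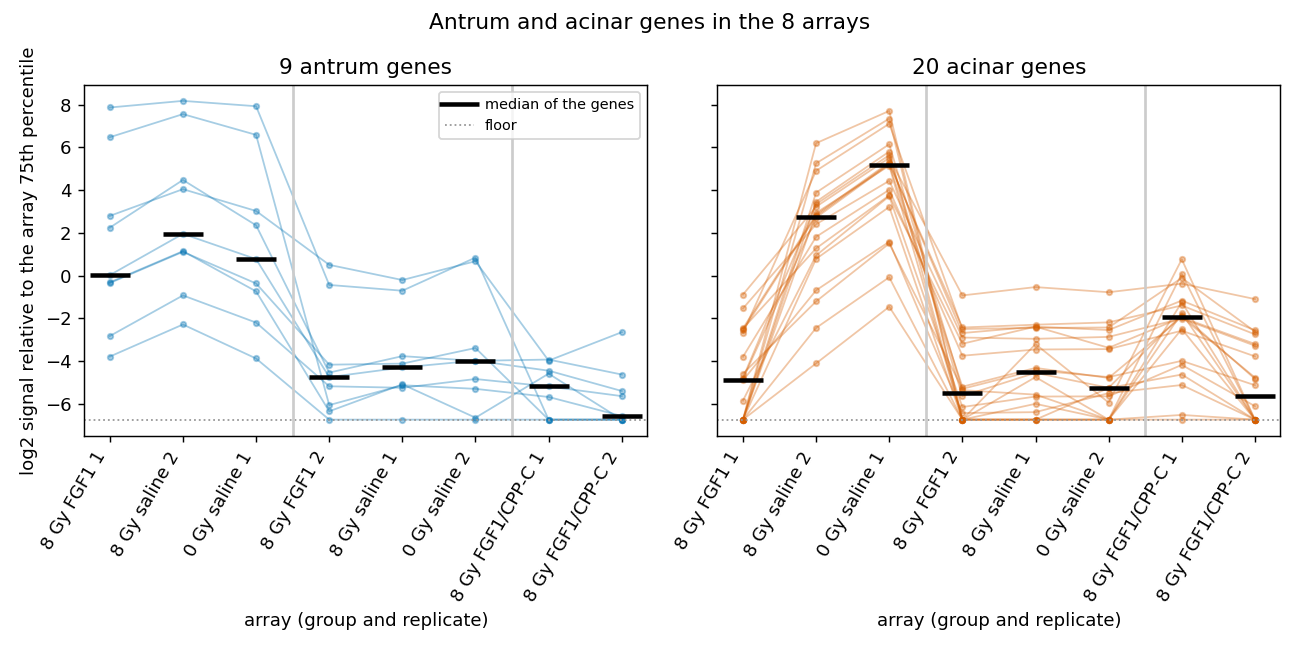
Log2 signal relative to the array's 75th percentile for 9 antrum genes (left) and 20 acinar genes (right) on the 8 arrays, 1 line per gene, with black bars for the median of the genes and a dotted line at the floor. Antrum genes are raised in FGF1 replicate 1, 8 Gy saline replicate 2 and 0 Gy saline replicate 1, and acinar genes in the 2 saline arrays of these and, less far, in FGF1/CPP-C replicate 1.

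FGF1/CPP-C replicate 1 carried acinar transcripts while Gkn2, Tff1, Muc5ac and Gast stayed at -3.93 or below, and Psca was the antrum member at least 4-fold above replicate 2 (-4.59 and -6.74). The median of the 32 acinar genes was 1.26 for replicate 1 minus replicate 2, with 11 members at least 4-fold higher, against 0.227% of all genes (0.174% were at least 4-fold lower). Amy2a5 was at 0.76 and Try4 at 0.08 in replicate 1, and both were at the floor in replicate 2. Of the 20 genes above, 9 were also at least 4-fold higher in FGF1/CPP-C replicate 1 than in replicate 2, so they were picked through the arrays where they are high. In these 9, 8 Gy saline replicate 2 exceeded FGF1/CPP-C replicate 1 by a median of 5.17 (4.65 to 5.43), and 0 Gy saline replicate 1 exceeded it by 7.39 (6.95 to 7.84).

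A few acinar-list members went with the antrum markers instead. Gp2, the main membrane glycoprotein of zymogen granules, had levels of 2.52, 3.47 and 3.49 in the higher-Gkn2 arrays, against -1.72, -1.57 and -0.60, and both of its probes gave pair differences of about the same size, 3.96 to 5.16. Klk1, tissue kallikrein, had levels of 4.42, 5.27 and 4.97, against 2.69, 2.82 and 3.50. Tmed6, a cargo receptor, differed by 1.20 to 1.90 and Bhlha15, a regulator of secretory cells, by 0.39 to 0.89. Reg1 was saturated on all 8 arrays and shows nothing of either tissue. Islet genes were flat, with pair medians of -0.20, -0.15 and 0.09 over 12 measured members, and Ins1, insulin 1, was at -4.77, -4.81 and -2.63, against -5.50, -5.06 and -4.53.

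The 9 measured duct-list genes had pair medians of 0.61, 0.70 and 0.65 in the FGF1, 8 Gy saline and 0 Gy saline pairs. Of the 9, 6 were higher in all 3 pairs (17.5% of all genes), 3 of them at least 2-fold (1.2% of all genes), and 1, Slc4a4, was lower in all 3. The mucin Muc1 had levels of -3.31, -2.49 and -2.83, against -5.92, -5.56 and -5.26, and Spp1, osteopontin, had levels of -2.75, -1.42 and -1.66, against -4.22, -3.80 and -3.51. Sox9, a transcription factor of ducts and of crypt bases, had levels of 0.23, 0.66 and 0.24, against -1.23, -1.19 and -1.01. Cftr and Slc4a4, channels and transporters of duct fluid, differed by at most 0.25 in size in any pair.

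Among the 55 genes at least 4-fold higher in all 3 pairs, 52 had an established symbol and 13 were in a list. At the limit, Nupr1 (2.01) and Tmem45a (2.03) lay just inside by their smallest log2 difference, and Cilp (1.96), Eps8l1 (1.99) and Aqp5 (1.96) just outside. In 23 of the 55 the other array of at least 1 pair was not well above background, so that difference is a lower bound. Outside the lists, Mucl3 (also Dpcr1), a mucin-like gene, had levels of 2.53, 4.58 and 2.39, against -4.91, -5.31 and -2.39. Mal, a protein of apical transport, had levels of 1.77, 3.42 and 1.76, against -2.61, -2.80 and -2.80. Gsdma2 and Gsdma3, gasdermins of the upper digestive tract and skin in the mouse, differed by 5.27 to 6.67 and by 3.35 to 4.55. Slurp1, a secreted Ly6 protein, was 22.5-fold higher in the FGF1 pair, 54.6-fold in the 8 Gy saline pair and at least 25.4-fold in the 0 Gy saline pair, and Psapl1, Fer1l4, Teddm3, Syt16, Sptssb and Cysrt1 also passed the limit.

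The symbols Mup1, Mup4, Mup17, Mup18, Mup19 and Mup20 of the major urinary proteins all passed, but these genes are near-identical copies that probes may not separate, so they count as uncertain. Mup18 had levels of -1.82, 0.47 and -0.62, against floor values in the FGF1 and 8 Gy pairs and -6.61 in the 0 Gy pair. Alb, albumin, had levels of -4.64, -3.92 and -4.69 and was at the floor on all 5 remaining arrays. The liver list as a whole did not shift, with pair medians of 0.13, -0.21 and 0.41 over 11 measured genes. Of the 11, 3 were higher in all 3 pairs (17.5% of all genes) and 2 were lower in all 3 (25.9%). Alb and Ttr (differences of 1.73, 2.75 and 1.20) were the 2 at least 2-fold higher in all 3, as were 1.2% of all genes. Mug1 and Mug2, outside the lists, also passed the 4-fold limit. Clu, clusterin, which marks injured and regenerating epithelium as well as stomach, had levels of 5.74, 6.62 and 5.92, against 3.01, 2.89 and 3.67, and 1.13 and 3.81 in the FGF1/CPP-C arrays. Muc5b, a gel-forming mucin, had levels of 1.27, 1.80 and 1.42, against -1.85, -1.71 and -0.71.

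The intestinal gene lists described next lay slightly lower in the higher-Gkn2 arrays by their medians. Enterocyte genes had pair medians of -0.20, -0.46 and -0.27, and 21 of 23 with all values were lower in all 3 pairs, as were 5781 of all 22342 genes (25.9%). Apoc3, an apolipoprotein, had levels of 6.34, 6.02 and 6.01, against 6.84, 6.65 and 6.55. Lct, lactase, had levels of 6.08, 5.90 and 6.20, against 6.58, 6.45 and 6.55. Cck, the hormone cholecystokinin, had levels of 4.57, 4.02 and 4.53, against 5.03, 4.93 and 5.11. Distal genes had medians of -0.19, -0.79 and -0.31, enteroendocrine genes -0.14, -0.48 and -0.32, goblet genes -0.07, -0.17 and -0.19 and Paneth genes -0.05, -0.39 and -0.51. Of those with all values, 9 of 12, 10 of 15, 4 of 8 and 5 of 10 were lower in all 3 pairs. In the same order 1, 1, 2 and 1 were higher in all 3, against 17.5% of all genes. The Paneth-list member Habp2 differed by 2.17, 3.08 and 1.51, and the distal-list member Fgf15 by 1.66, 0.31 and 1.12. Outside the lists Mmp9 (a matrix protease), Clca4a of the chloride channel accessory family, the fatty acid carrier Cd36 and the defensin Defa31 were lower in all 3 pairs, by 0.56 to 1.93 on the log2 scale. At the 2-fold limit 4 of all genes (0.0179%) were lower in all 3 pairs.

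**Figure D3:**
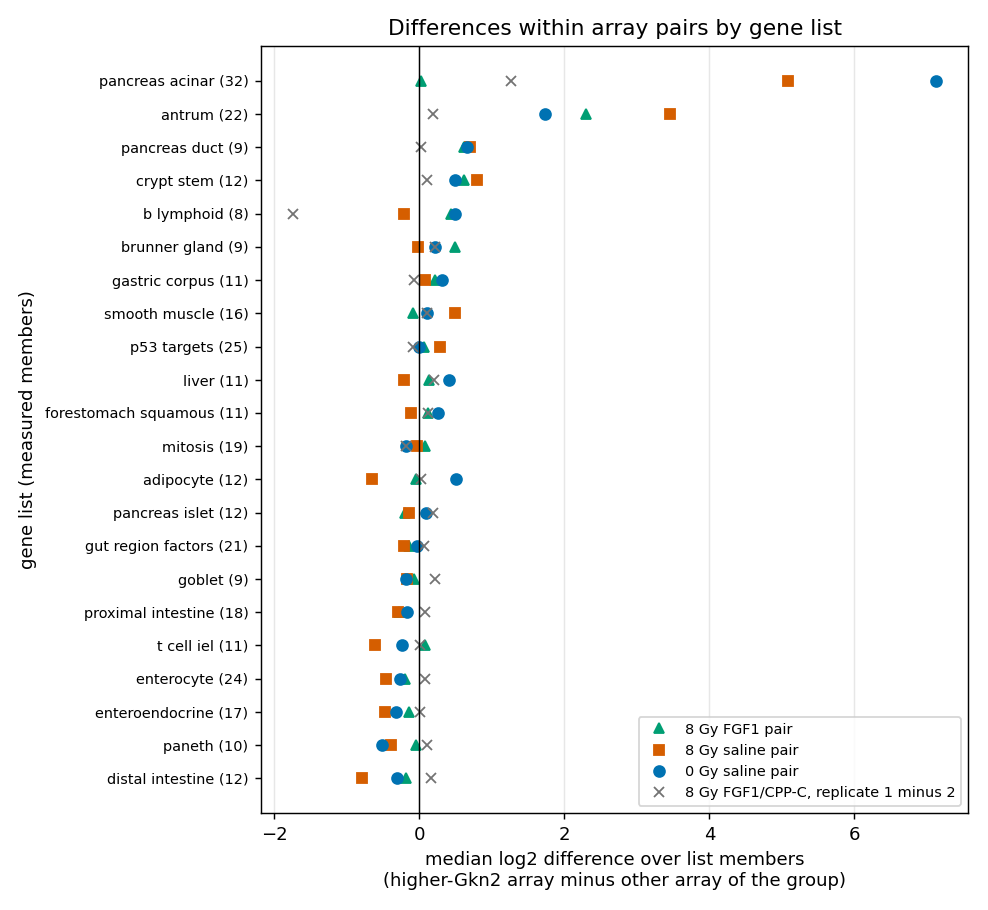
Median log2 difference of each gene list, higher-Gkn2 array minus other array, for the FGF1 (triangles), 8 Gy saline (squares) and 0 Gy saline (circles) pairs, with FGF1/CPP-C replicate 1 minus replicate 2 as crosses. The antrum list lies at 1.73 to 3.46 in all 3 pairs, the acinar list at 0.02 in the FGF1 pair and at 5.09 and 7.13 in the saline pairs, and the enterocyte list at -0.46 to -0.20.

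The 12 crypt stem genes had pair medians of 0.61, 0.79 and 0.49. Ascl2, a stem cell transcription factor, had levels of 0.64, 1.29 and 0.84, against -0.17, -0.43 and 0, and Cd44, a Wnt-responsive adhesion receptor, had levels of 1.02, 1.28 and 0.87, against 0.29, 0.37 and -0.06. Lgr5, the defining receptor of intestinal stem cells, did not follow them, with levels of -3.58, -3.66 and -3.24, against -3.01, -3.56 and -3.07. Among region factors Six2, expressed in the mesenchyme of the pylorus in the mouse, had levels of -4.71, -2.70 and -3.98, against -6.03, -5.68 and -5.45. Pitx1 differed by 0.63 to 1.03. The intestinal factor Cdx2 had levels of 2.89, 2.43 and 2.96, against 3.30, 3.21 and 2.96.

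The group comparisons the design implies mix both kinds of array. They were fitted with limma over all genes with Benjamini-Hochberg adjustment. For 8 Gy saline against 0 Gy saline, 92 of 21746 genes passed (0.423%), 72 higher (0.331%) and 20 lower (0.092%). That count was 0 when either 0 Gy saline array was left out and 10 to 41 when any other array was. None of the 21 antrum, 9 Brunner gland and 27 acinar members tested passed, with smallest adjusted p of 0.319, 0.0949 and 0.319. For FGF1 against 8 Gy saline, 0 of 21751 genes passed by limma and 378 had an unadjusted p under 0.05, none of them an antrum, Brunner gland or acinar member. The median acinar log2 fold change there was -2.13, against 0.01 over all genes. It was -0.19 without 8 Gy saline replicate 2, -4.13 without 8 Gy saline replicate 1 and -0.14 without the 3 higher-Gkn2 arrays. Cpa1 had a log2 fold change of -5.21 ± 4.88 (SE, limma adjusted p = 1). Of the 55 genes past the 4-fold limit 41 were tested, and their median SE was 1.75, against 0.15 over all genes. None of the 41 passed in any of the 4 comparisons. They were picked for differing between the 2 arrays of a group, which is the spread these fits use. A large SE and a lack of calls therefore follow from the choice and are no result about these genes.

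FGF1/CPP-C gave 2 calls of 21751 genes against 8 Gy saline and 2 of 21761 against FGF1 (0.00919% each), both times Tff2 and Gkn3. Nkx6-3, placed with them above, did not pass (limma adjusted p = 0.189 and 0.184). Tff2 was at least 28100-fold lower in FGF1/CPP-C arrays than in 8 Gy saline arrays (-14.78 ± 0.30, SE, limma adjusted p = 9.43e-05), with -6.02 and -6.74, against 8.16 and 8.64. Gkn3, saturated on 1 of the 8 Gy saline arrays, was at least 672-fold lower, with -1.66 and -1.82, against 7.18 and 8.12 (-9.39 ± 0.40, limma adjusted p = 0.00409). Against FGF1 the log2 fold changes were -14.78 ± 0.30 for Tff2 and -9.43 ± 0.40 for Gkn3 (limma adjusted p = 9.43e-05 and 0.004). Aqp5 was at the floor in both FGF1/CPP-C arrays and did not pass (-8.29 ± 1.32 against 8 Gy saline, limma adjusted p = 0.19). The agent and the stretch of tissue cut for each array, which the labels do not state, cannot be told apart in these comparisons. With the 3 higher-Gkn2 arrays left out, no gene passed in these comparisons or for 8 Gy against 0 Gy saline, in a fit with 1 residual degree of freedom, and 1495 (FGF1/CPP-C against 8 Gy saline), 1947 (against FGF1) and 2128 (8 Gy against 0 Gy) had an unadjusted p under 0.05. With the split as a covariate, 12 and 13 genes passed in the FGF1/CPP-C comparisons. That covariate comes from the Gkn2 signal of these same arrays. It takes up the spread of genes that follow the split, such as Aqp5, which then passed, so these calls are descriptions. Gkn3 was called in neither comparison without FGF1/CPP-C replicate 2.

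The irradiation difference could also be read within each kind of array, as 1 array against 1 with no test. Between the higher-Gkn2 arrays, 24 p53 targets had a median log2 difference (8 Gy minus 0 Gy saline) of 1.71 with 23 above 0, and between the other arrays 1.33 with 22 above 0. Over all genes these medians were -0.08 and 0.01, with 8651 and 11411 of 22344 genes above 0. Gdf15, a stress cytokine and p53 target, differed by 5.83 and 5.34, and Phlda3, an Akt inhibitor, by 4.24 and 3.73. The 19 mitosis genes had medians of -0.79 and -0.99, with none above 0 in either. Both lists thus had their direction in both kinds of array. Acinar genes had medians of -2.21 between the higher-Gkn2 arrays and 0 between the other arrays, antrum genes 0.76 and -0.38, and crypt stem genes 0.10 and -0.42. Genes at least 2-fold apart numbered 298 higher and 1025 lower between the higher-Gkn2 arrays, and 392 higher and 265 lower between the other arrays. Of these, 112 were 2-fold apart in opposite directions.

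**Figure D4:**
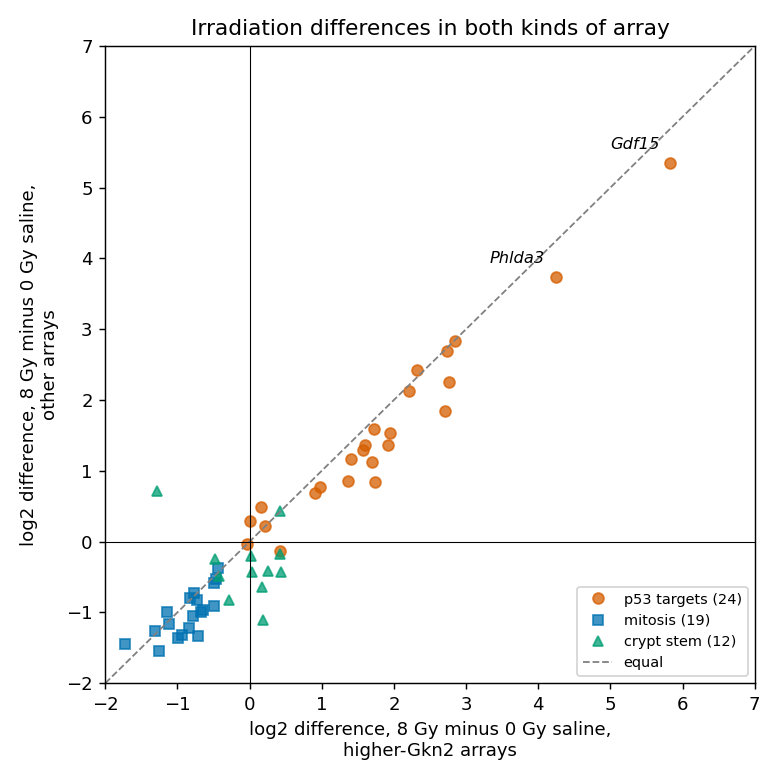
Log2 difference of 8 Gy minus 0 Gy saline between the higher-Gkn2 arrays (x axis) and between the other arrays (y axis), 1 point per gene for 24 p53 targets (circles), 19 mitosis genes (squares) and 12 crypt stem genes (triangles), with a dashed line where both are equal. Gdf15 lies at 5.83 and 5.34, mitosis genes lie below 0 on both axes, and most crypt stem genes lie near 0.

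For FGF1 minus 8 Gy saline the same reading gave different values by kind of array. Antrum genes had a median of -1.01 between the higher-Gkn2 arrays and 0.01 between the other arrays, and acinar genes -4.11 and -0.13. Enterocyte genes had medians of 0.27 (23 of 23 above 0) and 0.04 (12 of 23), and smooth muscle genes -0.53 (0 of 16 above 0) and 0.04 (10 of 16). Over all genes the medians were 0.07 (14056 of 22377 above 0) and -0.04 (9460 of 22377). The p53 targets were near 0 in both, at -0.13 and 0.09. Genes at least 2-fold apart numbered 443 higher and 255 lower between the higher-Gkn2 arrays, and 90 higher and 395 lower between the other arrays, with 136 apart in opposite directions. These differences between kinds of array were not tested.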

How the data were processed

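Total RNA of 8 samples was hybridised to 1-colour Agilent arrays, 2 per group on 2 slides of 4. The submitters' processing notes name Agilent Feature Extraction 9.5.3.1. Per the file headers, the deposited processed signal is a background-subtracted intensity on a linear scale, not scaled between arrays. Probe coordinates are of mm9. The authors' own group tests are not described in the labels.

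The log2 processed signal minus each array's 75th percentile was taken, with a floor of -6.74 chosen once negative signals had been seen. The 1377 control spots and outlier spots were left out, saturated spots kept, spots of a probe averaged (43020 spots, 39429 probes) and each gene represented by its brightest kept probe. Names came from RefSeq (GRCm38.p6) by accession (28330 probes), symbol (2204) or synonym (174), and 8721 probes kept the file's name. For pairs a probe had to be well above background on at least 2 of 6 arrays, and for group tests on both arrays of a group. Group means over all 8 arrays were fitted with limma 3.58.1 in R 4.3.3, threshold 0.05 after adjustment, checked on simulated data. The simulation used independent normal noise as the fit assumes. It had no floor, saturation or split shared by genes, so it cannot show how the calls hold under these. Figures used matplotlib 3.10.9, with pandas 2.3.3 in Python 3.11.15. Array number, not depth, limits precision.

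Named genes were, per list, up to 6 members with the largest mean absolute pair difference, outside the lists up to 15 per direction, up to 4 list members called per group test, and the 3 on each side of the 4-fold limit. Of these, 1 gene is not reported here. Genes named beyond it to complete a tier, a list or the 55 were chosen after their values were seen. The split, members and lists were chosen with earlier results of these data known. Alternatives were other background corrections, normalisations, filters and probe rules, the series matrix values, the slide as a block, left-out arrays or pairs, and the split as a covariate.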

Additional observations from a re-analysis of the deposited data

Results flagged for a closer look

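Some lists and genes moved in opposite directions in different pairs, and these differences were not tested. The 12 adipocyte genes had a median difference of -0.65 in the 8 Gy saline pair and 0.50 in the 0 Gy saline pair. Cpa1 differed by 12.88 in the 0 Gy saline pair and by -1.38 in the FGF1 pair, where its level in the higher-Gkn2 array was at the floor. Cyp2e1, a cytochrome P450, differed by 1.78 in the 0 Gy saline pair and by -1.15 in the 8 Gy saline pair. Retn, the adipocyte hormone resistin, differed by 1.20 and -1 in those pairs.

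The FGF1/CPP-C arrays, which the split did not use, differed between themselves in 2 lists. Acinar genes had a median of 1.26 and B lymphoid genes a median of -1.74 for replicate 1 minus replicate 2. Ms4a1, which encodes the B cell surface protein CD20, was at -4.89 in replicate 1 and -0.65 in replicate 2. Neither difference was tested.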

How the results depend on the processing

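The genes higher in all 3 pairs, by at least 4-fold, numbered 55, and 26 with normexp background correction, 32 when probes had to be well above background on all 6 arrays, 268 at a 2-fold and 22 at an 8-fold limit. The genes lower in all 3 pairs numbered 0, and 1 with quantile normalisation and 4 at the 2-fold limit. Leaving out 1 pair gave 56 to 106 higher and 1 to 2 lower. With the replicate number (slide) as a replicate block these counts were 173 and 2, where 1 fitted difference over all 8 arrays takes the place of the 3 pair differences. The acinar median between FGF1/CPP-C arrays was 0.55 with the filter on all 6 arrays.

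For 8 Gy against 0 Gy saline (92 calls) the series matrix values gave 34, the filter of 1 array 57, the replicate block 37 and the fit without the higher-Gkn2 arrays 0, and leaving out 1 array gave 0 to 41. FGF1 against 8 Gy saline gave 2 with the mean of probes. FGF1/CPP-C against 8 Gy saline (2 calls) gave 4 with normexp, 6 with quantile, 0 with series matrix values, 7 with the mean of probes, 1 with the filter on all 8 arrays, 0 without the higher-Gkn2 arrays, 12 with the covariate and 2 to 7 leaving out 1 array. Against FGF1 (2 calls) these were 10, 13, 0, 11, 1, 0 and 13, and 2 to 5. The causes were not tested.

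Replicate numbers mark slides, and correlations of replicate deviations between groups across 21614 genes ran from -0.52 to 0.54. Their signs went with the split: 0.54 for 0 Gy saline with FGF1, where the higher-Gkn2 arrays share a replicate number. They were -0.52 for 0 Gy with 8 Gy saline and -0.37 for 8 Gy saline with FGF1, where these arrays do not. These correlations cannot decide whether replicates were paired, and the main fits used no pairing. The replicate block changed no other call count. Untested list medians changed sign with left-out arrays. For 8 Gy against 0 Gy saline the antrum median (0.09) was -0.40 without the higher-Gkn2 arrays and -1.40 to 1.44 leaving out 1 array, and the acinar median (-0.87) was -4.31 to 2.12. For FGF1 against 8 Gy saline the antrum median (-0.35) was 0.02 and -2 to 1.24. The acinar median of FGF1/CPP-C against 8 Gy saline (-2.11) was 0.15 without the higher-Gkn2 arrays and -4.72 to 0.15 leaving out 1 array, and against FGF1 (0.33) it was -0.15 to 0.65. The precision is limited by 2 arrays per group, and dim probes give only bounds.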
